A study of Mus musculus with 12 samples.

Results

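The 40 genes described here drive the cell cycle and DNA replication, and their levels were followed in dorsal root ganglia (DRG) of the mouse before and after nerve injury. They were taken by gene symbol from the 24060 genes listed for each library, and all 40 were found. They comprise 14 genes of DNA replication and nucleotide supply, 3 cyclins of G1 (the phase before DNA synthesis) and 23 genes of G2 and mitosis. The animals were C57BL/6J males of 9 to 10 weeks. Naive mice formed 1 group, and the other 3 groups were taken 1, 3 and 7 days after spared nerve injury (SNI), in which the tibial and the common peroneal nerve are tied and cut while the sural nerve, the third sciatic branch, is left intact. Each group had 3 RNA-seq libraries. Whether a library held a single mouse or pooled mice is not given, so the spread behind each p-value is that between libraries, which may be technical, and with naive mice as the reference the effects of surgery and of nerve injury cannot be told apart.

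A dividing cell first copies its DNA, with the MCM helicase opening the double strand and the PCNA clamp holding the polymerase, and then condenses, aligns and separates the chromosomes under the control of Cdk1 with cyclins A and B. Neurons of adult ganglia have left the cell cycle for good, so dividing cells in this tissue belong to other types, such as satellite glia, Schwann cells, macrophages, fibroblasts and vessel cells. Many mitosis genes are switched on mainly in G2, whereas several replication genes and D cyclins are also read in cells that do not divide.

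Libraries held between 13627000 and 17953000 reads by a depth recovered from the steps between values, and a single read over 1 kb of transcript amounted to 0.0557 to 0.0734 RPKM (reads per kilobase of gene, scaled to library size). The 11 neuron markers examined summed to between 1605 and 3597 RPKM in a library, against 23.3 to 43.4 RPKM for the 23 mitosis genes. Naive replicate 1 and day 7 replicate 2 carried more muscle transcripts than the others, with 8 muscle markers summing to 34.8 and 26.2 RPKM against 0.968 to 5.89 in the other 10 libraries. Ganglia are mixtures of cells, and fewer cells of a type and less RNA per cell cannot be told apart in them.

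Most of the 40 genes were read at low levels, and the highest medians were those of Pcna, Ccnd1 and Tk1. At or above 1 RPKM in all 12 libraries were 15 genes, 6 of replication, 2 G1 cyclins and 7 of mitosis. Under 1 RPKM in every library were 9 genes. Of these, 4 belong to replication: Mcm3 and Mcm5 (subunits of the MCM helicase), Cdc6 (which loads that helicase onto origins) and Uhrf1 (which carries DNA methylation over to the new strand). The other 5 act in mitosis: Cdk1 (the kinase that drives entry), Ccnb1 (its partner cyclin B1), Bub1 (spindle checkpoint), Plk1 (mitotic kinase) and Cdc20 (activator of the anaphase-promoting complex). A further 4 reached 1 RPKM in a single library each: Mcm2 and Aurkb in day 3 replicate 3, Birc5 in day 3 replicate 3 and Ect2 in day 1 replicate 2. Group means were under 1 RPKM in all 4 groups for 15 genes.

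**Figure D1:**
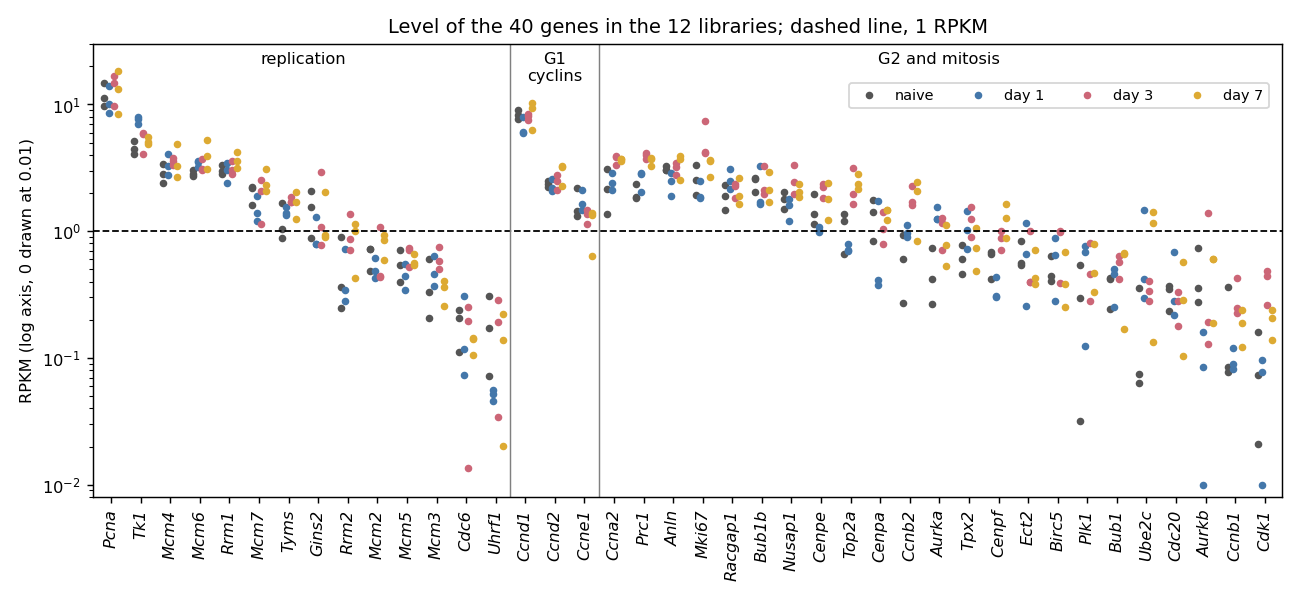
Level of each of the 40 genes (columns, sorted by median within replication, G1 cyclins and mitosis) in RPKM on a log axis, 1 point per library coloured by group, with 1 RPKM as the dashed line and values of 0 drawn at 0.01. Pcna and Ccnd1 lie highest, and 9 genes have all 12 points under the line.

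Differences were tested with limma on log2(RPKM + 0.5) over 14195 genes with at least 1 RPKM in at least 3 libraries, and a gene is called here where its Benjamini-Hochberg adjusted p over all of them was under 0.05. This filter kept 27 of the 40 genes: 9 of 14 replication genes, all 3 G1 cyclins and 15 of 23 mitosis genes. Of the 27, 6 had a naive mean under 1 RPKM and entered through other groups (Rrm2, Ccnb2, Aurka, Cenpf, Tpx2 and Ube2c), so counts among the tested genes are not counts over all 40. The 3 comparisons with naive share the same 3 naive libraries.

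Among the replication genes, Tk1 at day 1 gave the one call against naive. The MCM helicase subunits Mcm2 to Mcm7 split by level, with Mcm4, Mcm6 and Mcm7 above 1 RPKM in all 12 libraries and the other 3 near or under it. Mcm2 was read at 0.724, 0.725 and 0.489 RPKM in the naive libraries, at 0.428, 0.488 and 0.611 at day 1, at 0.444, 0.432 and 1.07 at day 3 and at 0.588, 0.856 and 0.936 at day 7. The groups overlapped, and the highest value came from day 3 replicate 3. Mcm3 ranged over all 12 libraries from 0.205 to 0.745 RPKM and Mcm5 from 0.341 to 0.739 RPKM.

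Mcm4 stood at 3.4, 2.84 and 2.39 RPKM in naive libraries, at 3.29, 2.79 and 4.07 at day 1, at 3.30, 3.60 and 3.76 at day 3 and at 2.69, 4.89 and 3.27 at day 7. Mcm6 stood at 2.74, 3.06 and 2.84 RPKM in naive libraries, at 3.59, 3.21 and 3.50 at day 1, at 3.10, 3.69 and 3.06 at day 3 and at 3.93, 5.25 and 3.09 at day 7. All 9 Mcm6 values after injury lay above the 3 naive ones, but by 0.13 to 0.39 on the log2 scale with an SE of 0.18, and adjusted p was 0.379 at the lowest (day 7). Mcm7 stood at 2.21, 2.19 and 1.59 RPKM in naive libraries, at 1.39, 1.20 and 1.91 at day 1, at 1.15, 2.53 and 2.06 at day 3 and at 2.33, 3.09 and 2.08 at day 7, with all groups overlapping naive. Exons of Mcm7 overlap those of Ap4m1 and Cops6 on the other strand, and the strandedness of the libraries is not given in the sources used here, so its reads are uncertain. In Mcm4, Mcm6 and Mcm7 the highest value of the 12 was in day 7 replicate 2, a library with muscle transcripts; their part in these levels was not tested.

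Pcna, the clamp that holds DNA polymerase, was the most abundant of the 40 genes. It was read at 14.8, 9.74 and 11.2 RPKM in naive libraries, at 10.0, 8.54 and 13.9 at day 1, at 9.80, 16.7 and 14.8 at day 3 and at 8.41, 18.4 and 13.3 at day 7. Every group spanned values above and below the naive mean of 11.9 ± 2.62 RPKM (SD, n = 3), and the log2 differences from naive were -0.14, 0.16 and 0.08 at days 1, 3 and 7 with an SE of 0.23. The highest naive and the highest day 7 value were those of the 2 libraries with muscle transcripts.

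Tk1, the thymidine kinase that salvages thymidine for DNA synthesis, rose at day 1. The gene lies at chr11:117815526-117826092 (mm10, minus strand, by GENCODE M21). It was read at 4.43, 5.18 and 4.04 RPKM in naive libraries, at 7.75, 8.01 and 6.96 at day 1, at 5.88, 4.07 and 5.92 at day 3 and at 4.89, 5.08 and 5.58 at day 7. The 3 day 1 libraries lay above all other 9. The group mean went from 4.55 ± 0.577 to 7.57 ± 0.547 RPKM (SD, n = 3), a ratio of 1.66, and the log2 fold change was 0.69 (SE 0.17, limma adjusted p = 0.0369). At days 3 and 7 the log2 difference from naive was 0.16 and 0.15, with adjusted p of 0.701 and 0.819. Day 3 against day 1 gave -0.53 (adjusted p = 0.27) and day 7 against day 1 gave -0.54 (0.198), so a fall after day 1 did not pass the test.

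Tk1 no longer passed when naive replicate 1 (adjusted p = 0.132), naive replicate 3 (0.157), day 1 replicate 1 (0.148) or replicate 2 of that day (0.116) was left out, nor with voom on recovered reads (0.0606), quantile normalization (0.0546), no filter (0.0612), no filter and voom (0.0918), the replicate block (0.0705) or in the absence of both muscle-rich libraries (0.158). Over 24 alternatives adjusted p ranged from 0.0023 to 0.158, with 14 of them past the threshold and log2 fold changes between 0.62 and 0.80. Exons of Tk1 and of Afmid, on the other strand, share 83 bases. Afmid, named after its values were seen, stood at 1.79 ± 0.521 RPKM in naive libraries and 1.87 ± 0.409 at day 1 (SD, n = 3).

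The other nucleotide-supply genes did not pass the test at any day. Rrm2, the regulated subunit of ribonucleotide reductase, was read at 0.246 to 0.896 RPKM in naive libraries, 0.281 to 0.720 at day 1, 0.715 to 1.36 at day 3 and 0.426 to 1.15 at day 7. Its log2 difference from naive was 0.58 at day 3 (SE 0.32, adjusted p = 0.368). Rrm1, the large subunit of that enzyme, kept between 2.40 and 4.24 RPKM in all libraries, and its differences from naive were at most 0.19. Tyms, which makes thymidylate, went from 1.19 ± 0.414 to 1.75 ± 0.0858 RPKM at day 3 (SD, n = 3) without overlap, but its log2 difference of 0.42 had an SE of 0.23 (adjusted p = 0.377). Gins2, a helicase cofactor whose exons overlap Gse1, ranged from 0.781 to 2.92 RPKM, both of these in day 3 libraries. Cdc6 ranged from 0.0135 to 0.307 RPKM and Uhrf1 from 0.0201 to 0.31 RPKM.

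None of the 3 G1 cyclins was called against naive with limma. Ccnd1, cyclin D1, which carries mitogen signals to Cdk4 and Cdk6, was read at 9.08, 8.32 and 7.64 RPKM in naive libraries, at 5.93, 6.10 and 8.0 at day 1, at 7.54, 8.05 and 8.40 at day 3 and at 6.32, 9.33 and 10.4 at day 7. Its day 1 mean was below naive by 0.30 on the log2 scale (SE 0.14, adjusted p = 0.308; 0.0338 with array weights), with overlap. Ccnd2, cyclin D2, was read at 2.21, 2.51 and 2.36 RPKM in naive libraries, at 2.07, 2.56 and 2.21 at day 1, at 2.11, 2.50 and 2.76 at day 3 and at 3.27, 2.28 and 3.22 at day 7. Ccne1, cyclin E1, which acts at the start of DNA synthesis, had group means of 1.66, 1.74, 1.33 and 1.12 RPKM in time order, with a log2 difference of -0.45 at day 7 (SE 0.22, adjusted p = 0.424). At an unadjusted p under 0.05 there was 1 lower G1 cyclin at day 1 against naive, where 6.46% of all genes tested were lower by that rule, and 0 at days 3 and 7. Voom called 0 at each day, where it called 4.44%, 7.42% and 3.89% of all genes tested at days 1, 3 and 7. Exons of Ccnd1 and Ccnd2 overlap genes on the other strand.

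The summed level of the 23 G2 and mitosis genes was higher in every library of days 3 and 7 than in any naive or day 1 library, and 2 of the genes, Prc1 and Ccnb2, passed the test against naive at day 3. The 4 of the 40 genes called in any comparison at this filter are shown here by their promoters, because genes of G2 often share promoter elements. The sequences are the bases just upstream of the RefSeq start furthest downstream (build GRCm38.p6), written 5′ to 3′ on the gene's strand, and capitals mark every match on either strand to TTTGAA (the CHR element), CCAAT (the NF-Y box) or to TTTCGCGC and TTTGGCGC (E2F sites). No match overlapped another.
Top2a, minus strand, chr11:99024190-99024439: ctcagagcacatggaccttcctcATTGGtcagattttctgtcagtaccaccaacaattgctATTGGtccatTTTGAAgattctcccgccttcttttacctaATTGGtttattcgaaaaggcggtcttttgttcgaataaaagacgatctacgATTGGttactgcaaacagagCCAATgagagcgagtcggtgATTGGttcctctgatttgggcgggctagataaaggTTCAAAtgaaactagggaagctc
Prc1, plus strand, chr7:80294226-80294475: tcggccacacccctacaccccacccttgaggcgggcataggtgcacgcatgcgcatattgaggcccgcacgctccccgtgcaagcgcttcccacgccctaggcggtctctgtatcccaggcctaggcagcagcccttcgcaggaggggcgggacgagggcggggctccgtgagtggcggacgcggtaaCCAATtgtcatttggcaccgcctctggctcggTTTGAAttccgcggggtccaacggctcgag
Ccnb2, minus strand, chr9:70421555-70421804: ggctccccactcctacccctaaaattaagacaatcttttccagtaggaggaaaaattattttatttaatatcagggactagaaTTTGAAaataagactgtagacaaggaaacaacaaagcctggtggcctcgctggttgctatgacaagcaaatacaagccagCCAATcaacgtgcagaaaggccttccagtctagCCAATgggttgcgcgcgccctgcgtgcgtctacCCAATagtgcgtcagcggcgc
Tk1, minus strand, chr11:117826093-117826264: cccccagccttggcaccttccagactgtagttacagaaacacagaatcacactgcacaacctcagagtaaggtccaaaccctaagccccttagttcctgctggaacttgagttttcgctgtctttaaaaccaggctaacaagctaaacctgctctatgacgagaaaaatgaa

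The 250 bases before the start of Top2a held 2 CHR and 6 NF-Y matches, those of Prc1 1 of each, and those of Ccnb2 1 CHR and 3 NF-Y matches. The Tk1 window held no match to any of them, and only its 172 bases outside the gene as GENCODE M21 annotates it are printed. The last 26 bases of the Prc1 window lie inside that annotation. Windows were found for 33 of the 40 genes. A CHR match was present in 8 of 20 mitosis windows (40%) and in 1 of 12 replication windows (8.33%), against 16.4% of the windows of 27025 genes. NF-Y matches were present in 17 of 20 mitosis windows (85%), 9 of 12 replication windows (75%) and 34% of all. Both together were in 8 mitosis windows (40%), 1 replication window and 5.62% of all. E2F matches were in 1 mitosis and 3 replication windows (Mcm5, Mcm6 and Uhrf1) and in 0.651% of all. A match is a description of letters and does not show that a factor binds.

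Day 1 against naive gave 1 higher call among the 40 genes (Tk1) and 0 lower, where 2.6% of all genes tested were called higher and 0.831% lower. No mitosis gene was among them with limma: 1 was higher at an unadjusted p under 0.05, as were 8.48% of all genes tested, and voom on recovered reads called 1, where it called 4.44% of all. That gene was Aurka, the kinase that matures the spindle poles, with 0.742, 0.422 and 0.267 RPKM in naive libraries and 1.24, 1.25 and 1.55 at day 1. The groups did not overlap, and the log2 difference was 0.95 (SE 0.26, adjusted p = 0.0587; voom passed). It was named after its values were seen. Over all 23 mitosis genes the median log2 difference at day 1, with no filter, was 0.0021, and over the 14 replication genes -0.05. All 3 day 1 libraries lay above all naive ones for 1 of 23 mitosis and 2 of 14 replication genes, against 8.64% of all detected genes. They lay below all naive ones for 3 of 23 mitosis and 1 of 14 replication genes, against 9.23% of all.

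At day 3 against naive, 2 of the 40 genes were called higher, Prc1 and Ccnb2, both of mitosis, and 0 were called lower, where 3.72% of all genes tested were called higher and 1.95% lower. Without a filter, when all 40 enter the test, the 2 genes called higher were Prc1 and Cdk1, where 2.22% of 21597 detected genes were called higher. Of the 23 mitosis genes, 17 had a positive difference from naive with no filter and their median was 0.35 on the log2 scale. For the 14 replication genes the count was 9 and the median 0.13, and the median over all detected genes was close to 0. All 3 libraries lay above all naive ones for 8 of 23 mitosis and 2 of 14 replication genes, as they did for 11% of all detected genes.

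Prc1, which bundles the microtubules of the central spindle, rose at days 3 and 7. The gene lies at chr7:80294450-80316259 (mm10, plus strand). It was read at 2.35, 1.87 and 1.83 RPKM in naive libraries, at 2.84, 2.85 and 2.04 at day 1, at 3.96, 3.74 and 4.16 at day 3 and at 3.69, 3.27 and 3.76 at day 7. All 6 libraries of days 3 and 7 lay above all 6 of naive and day 1. The mean went from 2.02 ± 0.291 to 3.95 ± 0.208 RPKM at day 3 (SD, n = 3), with a log2 fold change of 0.80 (SE 0.17, limma adjusted p = 0.0118), and to 3.57 ± 0.262 RPKM at day 7, with 0.68 (SE 0.17, adjusted p = 0.0487). The mean of all injured groups was above naive by 0.59 (adjusted p = 0.0204).

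For day 3 the Prc1 call was lost without naive replicate 2 (adjusted p = 0.0515) or naive replicate 3 (0.0595) and held in the other 22 of 24 alternatives (range 0.000987 to 0.0595). For day 7 it held in 5 of 24 (range 0.0234 to 0.184) and was lost with every single library left out except day 1 replicate 3 (0.0259): among naive libraries 0.0836, 0.16 and 0.184 for leaving out replicates 1, 2 and 3, among day 1 libraries 0.064 and 0.0507 for replicates 1 and 2, among day 3 libraries 0.0669, 0.0655 and 0.0712 and among day 7 libraries 0.116, 0.0721 and 0.106 for replicates 1, 2 and 3. The day 7 call was also lost with quantile normalization, a pseudocount of 1, no filter or a filter at 0.2 RPKM. So it was with the replicate block, with 2 groups only and without both muscle-rich libraries. The injured mean was not past the threshold without naive replicate 2 (0.108), naive replicate 3 (0.13) or both muscle-rich libraries (0.0547). Exons of Prc1 and of Rccd1, on the other strand, share 911 bases. Rccd1, named after its values were seen, stood at 1.14 ± 0.566 RPKM in naive and 0.994 ± 0.554 in day 3 libraries (SD, n = 3).

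Ccnb2, cyclin B2, a partner of Cdk1, was read at 0.272, 0.928 and 0.599 RPKM in naive libraries, at 0.896, 1.11 and 0.976 at day 1, at 1.70, 1.60 and 2.27 at day 3 and at 0.844, 2.09 and 2.43 at day 7. Day 3 lay above all naive and day 1 libraries, while day 7 replicate 1 lay within the naive range. The mean went from 0.599 ± 0.328 to 1.85 ± 0.358 RPKM at day 3 (SD, n = 3), with a log2 fold change of 1.11 (SE 0.28, limma adjusted p = 0.0346). At day 7 the difference was 0.99 (SE 0.28, adjusted p = 0.0903), and the injured mean was above naive by 0.86 (adjusted p = 0.0435).

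For Ccnb2 the day 3 call was lost with no filter (adjusted p = 0.0563), with no filter and voom (0.0599), without both muscle-rich libraries (0.141), and without naive replicate 1 (0.132), naive replicate 3 (0.0936) or day 3 replicate 1 (0.0897), 2 (0.0706) or 3 (0.13). It held in 16 of 24 alternatives, with adjusted p from 0.00573 to 0.141. Its call for the injured mean held in 7 of 23 alternatives (range 0.00565 to 0.324). It was lost without naive replicate 1 (0.24) or 3 (0.145), day 1 replicates 1, 2 or 3 (0.0661, 0.0631 and 0.0556), day 3 replicates 1, 2 or 3 (0.0687, 0.0558 and 0.0769), or day 7 replicates 2 or 3 (0.0739 and 0.0702). That call was also lost with no scaling, quantile normalization, no filter, voom, no filter and voom, and without both muscle-rich libraries. With 6 to 57 reads a library, Ccnb2 was read thinly.

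Cdk1, the kinase of mitotic entry, stayed under 1 RPKM in every library and so was tested with no filter. It was read at 0.0732, 0.0208 and 0.161 RPKM in naive libraries, at 0, 0.0959 and 0.0779 at day 1, at 0.262, 0.442 and 0.484 at day 3 and at 0.238, 0.139 and 0.205 at day 7. These values came from 3, 1 and 7 reads in naive libraries, 0, 4 and 4 at day 1, 12, 20 and 21 at day 3 and 11, 7 and 8 at day 7. Day 3 lay above all other groups, and the difference from naive was 0.60 (SE 0.14, limma adjusted p = 0.035) on the log2(RPKM + 0.5) scale, which understates changes at such levels. With voom on recovered reads it was 2.32 (SE 0.71, adjusted p = 0.0844).

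The Cdk1 call held in 7 of 16 alternatives (adjusted p from 0.033 to 0.163). It was lost with no filter and the replicate block (0.0599), with a filter at 0.2 RPKM (0.105), without both muscle-rich libraries (0.125), and without naive replicate 1 (0.106), naive replicate 2 (0.163), day 1 replicate 3 (0.0505), day 3 replicate 2 (0.114) or day 3 replicate 3 (0.115).

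Mki67, which coats mitotic chromosomes and marks cells in cycle, was read at 1.94, 3.35 and 2.55 RPKM in naive libraries, at 2.51, 1.85 and 1.84 at day 1, at 4.14, 4.20 and 7.41 at day 3 and at 3.66, 3.58 and 2.69 at day 7. Day 3 lay above every other library, and its replicate 3 lay far above the other 2. The day 3 mean of 5.25 ± 1.87 RPKM (SD, n = 3) was 2.01 times the naive mean of 2.61 ± 0.706, with a log2 difference of 0.84 (SE 0.25, adjusted p = 0.0703). Without day 3 replicate 3 the difference was 0.59 (adjusted p = 0.261). Voom on recovered reads gave 0.95 (adjusted p = 0.0107), and adjusted p ranged from 0.0107 to 0.261 over 24 alternatives. At day 7 the difference from naive was 0.29 (SE 0.25, adjusted p = 0.743).

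Top2a, the topoisomerase that untangles replicated chromosomes, was read at 0.655, 1.37 and 1.20 RPKM in naive libraries, at 0.710, 0.788 and 0.694 at day 1, at 1.65, 1.98 and 3.13 at day 3 and at 2.80, 2.36 and 2.14 at day 7. All 6 libraries of days 3 and 7 lay above all 6 of naive and day 1. Day 7 was 3.33 times day 1, at 2.44 ± 0.338 against 0.731 ± 0.0505 RPKM (SD, n = 3), with a log2 fold change of 1.23 (SE 0.25, limma adjusted p = 0.0313). Against naive the differences were 0.77 at day 3 (SE 0.25, adjusted p = 0.0937) and 0.90 at day 7 (SE 0.25, adjusted p = 0.0772), neither past the threshold. Both passed with voom on recovered reads (0.0237 and 0.0118), day 3 also with array weights (0.0271) and day 7 also with no filter and voom (0.0442), which makes 2 of 24 alternatives at each day.

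The day 7 against day 1 call for Top2a held in 14 of 24 alternatives (adjusted p from 0.0022 to 0.111). It was lost without day 1 replicate 1 (0.108), 2 (0.067) or 3 (0.111), without day 7 replicate 1 (0.0973), 2 (0.082) or 3 (0.0605), with no filter (0.0572), with the replicate block (0.0619), without both muscle-rich libraries (0.0697) and with only the 2 groups in the model (0.0746). In the F test of any difference between the 4 groups, Top2a (adjusted p = 0.017) and Prc1 (0.0327) were the 2 genes called of the 27 tested, where 4.78% of all genes were called. Top2a kept that call in 22 of 23 alternatives, losing it without day 1 replicate 1 (0.0523). Prc1 kept it in 12 of 23 and lost it without naive replicates 1, 2 or 3 (0.0685, 0.119 and 0.129), day 3 replicates 1, 2 or 3 (0.0813, 0.0627 and 0.0855) or day 7 replicate 3 (0.0502). Prc1 also lost it with quantile normalization, no filter, the replicate block and without both muscle-rich libraries.

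**Figure D2:**
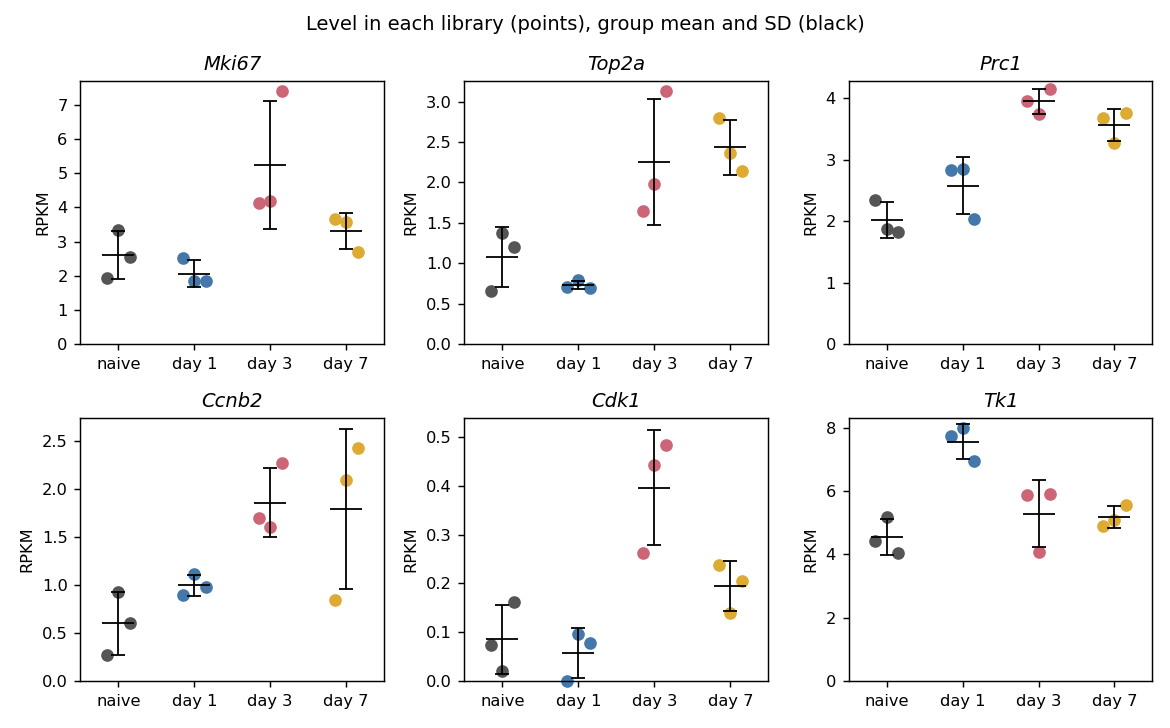
RPKM of Mki67, Top2a, Prc1, Ccnb2, Cdk1 and Tk1 (1 panel each, linear axes from 0) in the 3 libraries of each group, with the group mean and SD in black. Prc1 and Top2a are higher in all 6 libraries of days 3 and 7 than in all 6 of naive and day 1, and Tk1 is highest in the 3 day 1 libraries.

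At day 7 against naive, 1 of the 40 genes was called higher (Prc1) and 0 lower, where 2.32% of all genes tested were called higher and 0.599% lower. With no filter the median difference was 0.17 on the log2 scale over the 23 mitosis genes, 18 of them positive, and 0.15 over the 14 replication genes, 10 of them positive. All 3 libraries lay above all naive ones for 4 of 23 mitosis genes and 1 of 14 replication genes, against 9.29% of all detected genes. The injured mean against naive gave 2 calls, Prc1 and Ccnb2, both higher, where 5.83% of all genes tested were called.

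Day 3 against day 1 gave 0 calls among the 40 genes with limma, where 0.507% of all genes tested were called. At an unadjusted p under 0.05, 8 of the 27 tested genes were higher and 1 was lower, where 5.14% and 4.28% of all genes tested were. Voom called 3, where it called 1.05% of all. The 2 members with the lowest adjusted p were Top2a (1.10 on the log2 scale, 0.0791) and Mki67 (1.10, 0.0816). All 3 day 3 libraries lay above all day 1 libraries for 10 of 23 mitosis and 1 of 14 replication genes, against 7.48% of all detected genes. They lay below all day 1 libraries for 0 mitosis genes and 1 replication gene, against 5.43% of all. Day 7 against day 1 gave 1 call, Top2a, where 0.972% of all genes tested were called, and 10 of 23 mitosis and 1 of 14 replication genes lay above day 1 without overlap, against 7.9% of all. Below day 1 without overlap lay 1 mitosis gene, 1 replication gene and 1 G1 cyclin, against 4.43% of all. Day 7 against day 3 gave 0 calls with limma, where 0% of all genes tested were called. At an unadjusted p under 0.05, 1 of the 27 was lower, Mki67, as were 2.56% of all genes tested, and voom called 0, as it did over all genes.

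**Figure D3:**
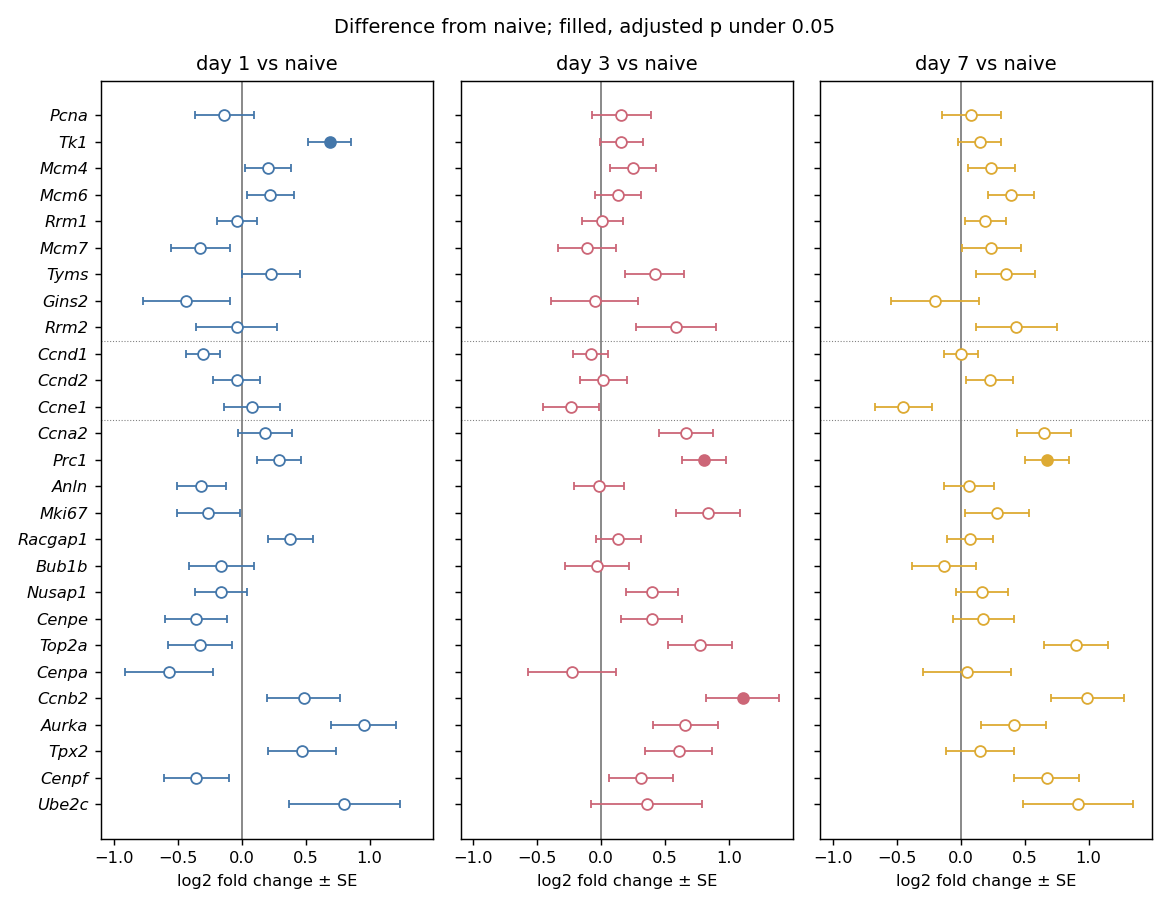
Difference from naive on the log2(RPKM + 0.5) scale with its SE for the 27 tested genes at days 1, 3 and 7, in the order replication, G1 cyclins, mitosis (dotted lines between), filled where adjusted p was under 0.05. The filled points are Tk1 at day 1, Prc1 and Ccnb2 at day 3, and Prc1 at day 7.

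None of the other mitosis genes was called against naive by the rule above. Under alternatives, Aurka passed in 3 of 24 at day 1 and 1 of 23 at day 3, Ube2c in 1 of 19 at day 1 and Cenpf in 1 of 19 at day 7. For day 7 against day 1, Cenpf had a limma adjusted p of 0.0821 and passed in 3 of 19 alternatives. Ccna2, cyclin A2, went from 2.20 ± 0.847 RPKM in naive to 3.71 ± 0.310 at day 3 and 3.67 ± 0.10 at day 7 (SD, n = 3), without overlap at either day, with differences of 0.66 (adjusted p = 0.0902) and 0.65 (0.143). Without naive replicate 3 both passed the test, at 0.0268 and 0.0421. In all, 2 of 24 alternatives passed at day 3 and 1 of 24 at day 7. Its exons overlap those of Exosc9 on the other strand. The centromere motor Cenpe (1.50 to 2.14 RPKM from naive to day 3), the kinetochore protein Cenpf (0.586 to 0.865, then 1.27 at day 7) and the spindle protein Nusap1 (1.78 to 2.58 at day 3) had their lowest group mean at day 1, with overlap of naive at day 3 for Cenpe and Nusap1.

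The spindle factor Tpx2 went from 0.616 ± 0.161 to 1.23 ± 0.328 RPKM at day 3 (SD, n = 3; 0.61 on the log2 scale, adjusted p = 0.241). Aurka, with which it acts, stood at 1.04 ± 0.299 RPKM at day 3 (adjusted p = 0.175). The checkpoint kinase Bub1b, the cytokinesis genes Anln and Racgap1, and Cenpa, the centromere's histone H3, kept differences from naive between -0.23 and 0.14 at day 3, with adjusted p of 0.768 or more. Ube2c, the ubiquitin-conjugating enzyme of the anaphase-promoting complex, ranged from 0.064 to 1.48 RPKM. Its group means at days 1, 3 and 7 were 4.46, 2.08 and 5.49 times a low naive mean, with no call (limma adjusted p = 0.423 at day 1). Exons of Ube2c share 592 bases with the muscle gene Tnnc2 on the other strand, which reached 2.22 and 1.72 RPKM in the 2 muscle-rich libraries. The part of Tnnc2 reads in the Ube2c level was not tested.

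The mitosis genes under the filter followed no single course. Ccnb1 ranged from 0.0772 to 0.431 RPKM, with a naive mean of 0.175 and a day 3 mean of 0.301. Plk1 ranged from 0.0317 to 0.807, Bub1 from 0.17 to 0.671 and Cdc20 from 0.104 to 0.692 RPKM. Exons of Plk1 and Cdc20, and those of Nusap1, overlap genes on the other strand. Birc5 and Aurkb, partners in the chromosomal passenger complex, reached 1.00 and 1.38 RPKM in day 3 replicate 3. In the other 2 day 3 libraries Aurkb stood at 0.191 and 0.129 RPKM. Ect2, which opens cytokinesis, ranged from 0.259 to 1.17 RPKM. Over all 23 mitosis genes the highest group mean was at day 3 for 13, at day 7 for 6, at day 1 for 4 and in naive ganglia for 0. Over the 14 replication genes it was at day 3 for 6, at day 7 for 5, at day 1 for 1 and in naive for 2. The same split over all detected genes was not counted, so these counts have no background to be set against.

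Summed over the 23 mitosis genes, the level was 23.3 to 26.7 RPKM in naive libraries, 24.0 to 27.0 at day 1, 34.7 to 43.4 at day 3 and 33.3 to 36.9 at day 7. Days 3 and 7 did not overlap naive or day 1. Group means were 25.2 ± 1.73, 25.8 ± 1.62, 38.0 ± 4.69 and 34.6 ± 1.95 RPKM (SD, n = 3), so day 3 was 1.51 times and day 7 1.37 times naive. Mki67 made up 20.6% of the day 3 difference, Prc1 15.1%, Ccna2 11.8%, Ccnb2 9.81% and Top2a 9.2%. Summed over the 14 replication genes, the level was 32.5 ± 4.22, 34.2 ± 3.84, 37.5 ± 5.33 and 38.2 ± 7.27 RPKM (SD, n = 3), and all groups overlapped. The 3 G1 cyclins summed to 12.4, 10.7, 11.8 and 12.7 RPKM.

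**Figure D4:**
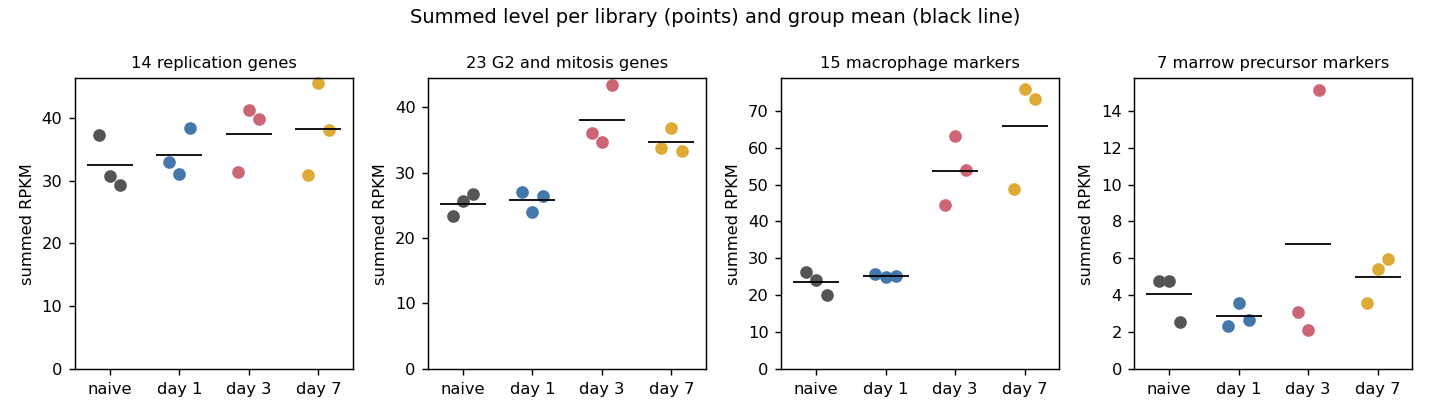
Summed RPKM per library (points) and group mean (black line) of the 14 replication genes, the 23 mitosis genes, 15 macrophage markers and 7 markers of marrow precursors, on axes from 0. The mitosis and macrophage sums at days 3 and 7 lie above all naive and day 1 libraries, the replication sums overlap, and day 3 replicate 3 alone stands high in marrow precursor markers.

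Macrophage markers were higher at the same days as the mitosis genes. The 15 markers summed to 20.1 to 26.4 RPKM in naive libraries, 24.8 to 25.7 at day 1, 44.4 to 63.0 at day 3 and 48.8 to 76.0 at day 7. Of 13 tested, 7 were called higher at day 3 and 7 at day 7, where 3.72% and 2.32% of all genes tested were. At day 1 limma called 0 higher, with 1 of the 13 at an unadjusted p under 0.05 (14.9% of all genes tested, in either direction) and 0 by voom. No marker was at 0 in all 12 libraries, and C1qa was the lowest of them at 0.34 RPKM or less. Their part in the mitosis levels was not tested.

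Lymphocyte markers (6 genes) summed to at most 2.68 RPKM in any library. The 7 markers of marrow precursors summed to 15.1 RPKM in day 3 replicate 3, against 2.09 to 5.98 in the other 11 libraries. Among the day 3 libraries, Mki67, Top2a, Cdk1, Ccnb2, Aurkb and Mcm2 were also highest there. Pcna, Mcm6 and Mcm7 were instead highest in day 3 replicate 2. These genes are examples, and the share of all genes highest in either library was not counted. The other 2 day 3 libraries stood at 36.0 and 34.7 RPKM for the summed mitosis genes, above all naive and day 1 libraries. The part of marrow precursors in the day 3 levels was not tested. Endothelial markers stood at 26.4, 26.6, 26.4 and 27.4 RPKM on average. The summed fibroblast, Schwann and satellite glia markers overlapped naive at each day, though 3 single markers were called. Of the 8 satellite glia markers, Glul (glutamine synthetase) was higher at days 1 and 3, by 0.66 and 0.78 on the log2 scale (adjusted p = 0.0388 and 0.0105), and Cadm2 was lower at day 3 (-0.59, adjusted p = 0.0335). Of the 6 fibroblast markers, Col3a1 was lower at day 1 (-0.71, adjusted p = 0.00798). None of the 10 Schwann markers was called at day 1, 3 or 7 against naive with limma, at an unadjusted p under 0.05 or by voom. For the injured mean against naive, S100b was lower by 0.33 on the log2 scale (limma unadjusted p = 0.0477, adjusted p = 0.278).

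The 11 neuron markers summed to 3013 ± 508 RPKM in naive libraries and to 2658 ± 679, 2660 ± 365 and 2333 ± 634 at days 1, 3 and 7 (SD, n = 3), so day 7, when mitosis genes were high, was 0.774 times naive, with overlap. At day 7, 1 of the 11 was called lower, the heavy neurofilament Nefh (-0.59 on the log2 scale, adjusted p = 0.0389), where 0.599% of all genes tested were. Snap25, Nefl, Nefm, Isl1 and Pou4f1 also lay below naive without overlap, with adjusted p from 0.0719 to 0.606. Of all detected genes, 5.86% lay below naive without overlap at day 7. At day 3 limma called 0 of the 11, with 1 higher and 3 lower at an unadjusted p under 0.05 and 0 by voom. Of all genes tested, 9.55% were higher and 8.21% lower at that unadjusted p, and voom called 7.42%. The part of neuron RNA in the mitosis levels was not tested. These marker genes are named after their values were seen.

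Wider lists of the same pathways held no call. Of 45 other replication genes 41 were tested, and of 61 other mitosis genes 28. In both lists limma called 0 at days 1, 3 and 7 against naive. At day 3, 2 of the other replication genes were higher and 6 lower at an unadjusted p under 0.05, where 9.55% and 8.21% of all genes tested were, with 0 by voom. For the other mitosis genes it was 3 higher and 1 lower, with 1 by voom. Their median differences at day 3 were -0.02 and 0.11 on the log2 scale. At day 1 the unadjusted counts were 6 of 41 and 0 of 28, and at day 7 they were 2 and 1, with 0 by voom in each, where 14.9% and 12.9% of all genes tested passed at days 1 and 7 in either direction. Summed, the other mitosis genes stood at 79.7 ± 3.26 RPKM in naive, 72.3 ± 1.88 at day 1, 87.2 ± 4.83 at day 3 and 89.7 ± 3.12 at day 7 (SD, n = 3). That was 1.094 times naive at day 3, where libraries overlapped naive (82.1 to 91.7 against 77.5 to 83.5 RPKM), and 1.125 times at day 7. The summed other replication genes were 0.978 times naive at day 3 and 0.993 times at day 7.

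Among 30 genes that control the passage from G1 to DNA synthesis, 26 were tested, and 2 were called higher at day 1, 4 at day 3 and 2 at day 7, with 0 lower, where 2.6%, 3.72% and 2.32% of all genes tested were called higher. Only Cdkn1a passed the F test in that list (adjusted p = 0.00128). Cdkn1a encodes p21, an inhibitor of cyclin-dependent kinases that halts the cycle. It was read at 5.30, 6.12 and 5.98 RPKM in naive libraries, at 13.0, 9.37 and 13.1 at day 1, at 15.9, 22.7 and 21.5 at day 3 and at 8.65, 17.3 and 19.5 at day 7. All 9 injured libraries lay above all naive ones, and the log2 fold changes were 0.96, 1.66 and 1.21 (SE 0.21 each), with adjusted p of 0.0206, 0.000241 and 0.00444. The other calls were Myc at days 1 and 3, Tfdp1 (a partner of E2F factors) at days 3 and 7, and Cdkn2b (an inhibitor of Cdk4 and Cdk6) at day 3, named after their values were seen.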

How the data were processed

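Sample titles gave the groups and the replicate numbers. As the labels' protocols describe, Trizol-extracted RNA was treated with DNase, amplified from ultra low input (Nugen Ovation) and built into TruSeq Nano libraries. Tools named in the submitters' processing notes are STAR, HTSeq, bcl2fastq 2.17, limma and edgeR, and the build is mm10, with no role stated for each. The deposited values were read as RPKM, computed by the authors per gene length and library size. This unit was inferred from the values, since whole reads could be recovered for 21592 of 21597 detected genes (99.98%, tolerance 0.05 reads). No molecular identifiers are mentioned, so reads of an amplified library may repeat the same molecule.

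Libraries were rescaled by trimmed means of log ratios (30% of ratios and 5% of levels trimmed at each end, unweighted), and log2(RPKM + 0.5) was fitted with limma 3.58.1 in R 4.3.3 as 4 group means with 8 residual degrees of freedom, a variance trend and robust moderation. Tests were two-sided, and p-values were adjusted by Benjamini-Hochberg over 14195 genes. The step was tested on simulated data. The genes, the marker and pathway lists and the tests were chosen with earlier results of these data known. Per-library values are given for Mki67, Top2a, the MCM genes above 1 RPKM and Mcm2, Pcna, Ccnd1, Ccnd2, Cdk1 and every called gene; from each other pathway list, genes past the F test are described. The design had foreseen a count model only if counts were found. Coordinates are those of GENCODE M21. No label says that replicate numbers pair the libraries. Residuals of libraries with the same number correlated between -0.34 and 0.23, which cannot exclude a shared batch.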

Additional observations from a re-analysis of the deposited data

How the results depend on the processing

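No called direction reversed under any alternative. Of 4447 values for single genes under alternatives, 4335 stayed on their side of the threshold, 80 were no longer past it and 32 came past it. This tally covers the 27 tested genes, not the 13 under the filter. For the F test it follows Top2a and Prc1 alone, so other genes that came past that test are not in it. In what follows, counts are of the 40 genes called, and those not given equal the ones reported: 1 at day 1, 2 at day 3 and 1 at day 7 versus naive, 0 for day 3 and 1 for day 7 versus day 1, 0 for day 7 versus day 3, 2 for the injured mean and 2 in the F test. Array weights gave 5, 5 and 2 at days 1, 3 and 7, 2 for day 3 versus day 1, 3 for the injured mean and 7 in the F test. Over all 14195 genes tested, array weights called 1844, 1954 and 831 at days 1, 3 and 7 and 2105 in the F test. The main fit called 487, 805, 415 and 679 of them, so calls rose over all genes too. Voom on recovered reads gave 5 at day 3, 3 at day 7, 3 and 2 versus day 1, 1 for the injured mean and 4 in the F test. Of all 14192 genes in that fit, it called 1053 at day 3, 552 at day 7, 1066 for the injured mean and 937 in the F test. With no filter and voom, an alternative added after seeing the data, the counts of the 40 genes were 0 at day 1, 2 and 2 versus day 1, 1 for the injured mean and 4 in the F test. This fit called 517 of all 21592 genes at day 1, 893 for the injured mean and 796 in the F test. With no filter the counts of the 40 genes were 0 at days 1 and 7, 0 for day 7 versus day 1, 1 for the injured mean and 1 in the F test. Here 404, 390, 120, 716 and 581 of all 21597 genes were called. A filter at 0.2 RPKM gave 2 at day 1, 0 at day 7 and 2 for day 7 versus day 1. That filter gave 460, 427 and 148 calls among all 17434 genes. Quantile normalization gave 0 at days 1 and 7, 1 for the injured mean and 1 in the F test. Among all 14195 genes it called 459, 397, 794 and 654 in that order. No scaling gave 1 for the injured mean, and a pseudocount of 1 gave 0 at day 7. All 14195 genes held 907 and 400 calls there. With only 2 groups in the model, day 7 gave 0 versus naive and 0 versus day 1. Over all genes, 252 of 13506 and 38 of 13544 were called.

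The replicate block gave 0 at days 1 and 7 versus naive, 0 for day 7 versus day 1 and 1 in the F test, and the replicate numbers are no pairing given by the labels. With that block 362, 323, 91 and 501 of all 14195 genes were called. Without the 2 muscle-rich libraries the counts were 0, 1 and 0 at days 1, 3 and 7, 0 for day 7 versus day 1, 0 for the injured mean and 1 in the F test. Leaving out 1 library at a time gave 0 to 1 at day 1, 1 to 2 at day 3, 0 to 1 at day 7, 0 for day 3 versus day 1, 0 to 1 for day 7 versus day 1, 1 to 2 for the injured mean and 1 to 3 in the F test. Calls over all genes tested then ranged from 218 to 618 at day 1, 449 to 1085 at day 3 and 235 to 519 at day 7. The median difference of the tested mitosis genes stayed between 0.33 and 0.80 at day 3 and between 0.16 and 0.43 at day 7, and that of replication genes between 0.07 and 0.21 and between 0.14 and 0.32. Depth limits the lowest genes, such as Cdk1, which had at most 21 reads in a library.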
